A study of Rattus norvegicus with 16 samples.

Results

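Hox genes encode homeodomain transcription factors that give cells along the body axis their rostrocaudal position. In mammals they lie in the clusters Hoxa, Hoxb, Hoxc and Hoxd, and genes of the same number in different clusters are paralogs. Within a cluster, low-numbered genes are switched on early and rostrally and high-numbered genes late and caudally, under signals that include retinoic acid, FGFs and the Cdx factors. In the mouse spinal cord, combinations of Hox proteins, bound to DNA with the cofactors Pbx and Meis, set the columns and pools of motor neurons, and many of these genes stay on after the segments are laid out. Chromatin regulators of the Polycomb and trithorax groups keep them silent or active.

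The Hox genes described here are the transcript clusters of the array whose platform annotation gives a single symbol made of Hox, a cluster letter and a paralog number. The rule found 27 genes, 1 transcript cluster each, among 15653 transcript clusters with a gene symbol. The RefSeq gene table of the rat (GRCr8) lists 39 Hox genes, and the other 12 were not analysed here. By cluster, 7 genes were Hoxa (chromosome 4), 9 Hoxb (chromosome 10), 5 Hoxc (chromosome 7) and 6 Hoxd (chromosome 3). By paralog number, 5 were anterior (1 to 3), 12 central (4 to 8) and 10 posterior (9 to 13). The gene ID of the platform matched that of RefSeq for 25 of them. Hoxa2 and Hoxa11 matched by symbol only, so their identity is less sure. In RefSeq, 7 members overlap other genes (Hoxa5 and Hoxa6 with Hoxa3, Hoxc4 and Hoxc5 with Hoxc6, Hoxb5 and Hoxb6 with Hoxb5os, Hoxd4 with Mir10b), and the probe positions, which would tell these apart, were not given in the sources used here.

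RNA came from rat myelinating cultures, in which dissociated spinal cord of E15.5 Sprague-Dawley embryos is grown over astrocytes raised from neurospheres of P1 striatum of the same strain. The cultures therefore mix spinal cord neurons and glia with forebrain-derived astrocytes, and the arrays do not tell which of these cells carried Hox RNA. In addition, fewer cells of a type and less RNA per cell cannot be told apart. Cultures were exposed to a recombinant FGF2 protein at 18 DIV (days in vitro) for 24 h, and the labels give 19 DIV for the harvest. The groups were F2V2, an FGF2 variant that lacks N-terminal amino acids, wtFGF2, for which neither dose nor origin is given in the sources used here, humanFGF2, the recombinant human protein, and Control, untreated cultures of the same age. Each group had 4 arrays (16 in all), and the 3 comparisons with Control share the same 4 Control arrays. The deposited description speaks of independent cultures and the legend in the paper of technical replicates, and the p-values below therefore reflect only how far these arrays scatter, which may be technical. Arrays of the same group correlated at 0.996 or more, and the median SD per transcript cluster was 0.08 to 0.11 on the log2 scale.

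All values below are log2 expression values per transcript cluster. A gene was called at an adjusted p under 0.05 (limma, Benjamini-Hochberg over the 15653 clusters) and a difference of at least 1.4-fold, which is 0.49 on the log2 scale. Brightness differs between probe sets, so levels were compared between groups for the same gene and, between genes, only against a floor at a log2 value of 5.

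RefSeq promoters (300 bases around the start) could be matched for 14 of the 27 Hox genes, among them Hoxa7, Hoxd4 and Hoxd10. These 3 are shown as examples. Their genes, described below, lay lower on average in all 3 ligand groups than in Control and belong to different paralog groups. Other matched genes, among them Hoxa6, Hoxa9 and Hoxd3, also lay lower in all 3 groups, and the Hoxa6 and Hoxd3 windows held no match in the search below. The search was on both strands, and capitals mark the matches. It covered the Hox-Pbx motif TGATNNAT, the Meis motif TGACAG, the Cdx motif TTTATG, the homeodomain core TAATTA and the TATA box TATAAA. It also covered AGGTCA, named the retinoid receptor motif here, which is a single unit and not a whole receptor element. The sequences run 5′ to 3′ on the strand of the gene (GRCr8).
Hoxa7, chr4:82648192-82648491, minus strand: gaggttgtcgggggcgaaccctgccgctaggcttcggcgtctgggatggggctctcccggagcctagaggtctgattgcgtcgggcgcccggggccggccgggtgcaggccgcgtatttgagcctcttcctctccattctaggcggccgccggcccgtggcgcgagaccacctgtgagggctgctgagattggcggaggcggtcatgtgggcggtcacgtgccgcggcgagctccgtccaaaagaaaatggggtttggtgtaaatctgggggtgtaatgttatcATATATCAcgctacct
Hoxd4, chr3:80021636-80021935, plus strand: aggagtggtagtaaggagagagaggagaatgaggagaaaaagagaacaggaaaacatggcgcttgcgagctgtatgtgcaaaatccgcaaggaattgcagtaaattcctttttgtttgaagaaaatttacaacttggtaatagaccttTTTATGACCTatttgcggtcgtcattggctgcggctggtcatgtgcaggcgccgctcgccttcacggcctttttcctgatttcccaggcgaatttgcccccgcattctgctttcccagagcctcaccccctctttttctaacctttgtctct
Hoxd10, chr3:80001697-80001996, plus strand: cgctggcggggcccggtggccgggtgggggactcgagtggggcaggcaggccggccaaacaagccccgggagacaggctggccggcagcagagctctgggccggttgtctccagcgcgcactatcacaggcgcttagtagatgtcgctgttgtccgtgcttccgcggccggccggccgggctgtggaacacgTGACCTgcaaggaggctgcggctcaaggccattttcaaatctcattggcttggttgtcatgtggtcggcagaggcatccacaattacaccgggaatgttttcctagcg
The Hoxd4 window held a Cdx motif (bases 149 to 154) that overlaps a retinoid receptor motif on the reverse strand (bases 153 to 158). The Hoxd10 window held a reverse retinoid receptor motif alone (bases 193 to 198), and the Hoxa7 window a reverse Hox-Pbx motif (bases 285 to 292). The Hoxa7 window lies inside the RefSeq span of the gene (chr4:82646342-82652449, minus strand) and not at its outermost start. Across the 14 Hox promoters, the retinoid receptor motif and the Hox-Pbx motif were each found in 3, the Meis, Cdx and TATA motifs each in 2 and the homeodomain core in 0. Of all 33469 RefSeq promoters of this length, 16.2% held the retinoid receptor motif, 9.1% the Hox-Pbx motif, 19% the Meis motif, 12.7% the Cdx motif, 14.2% the TATA box and 5.36% the homeodomain core. The Hox promoters had a median GC content of 59.8% and a median of 20 CpG, against 51.7% and 7 for all promoters. Hoxd4 lay lowest of the 3 shown, with 47.3% GC and 12 CpG, and Hoxa7 and Hoxd10 had 64.3% and 64.7% GC with 29 and 24 CpG. A match is a description of letters and not of a bound site.

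In Control cultures, the Hox genes that passed the floor formed a block in the middle of the clusters. All 4 Control arrays lay at or above the floor for 21 of 27 Hox genes (77.8%), against 65.9% of all named transcript clusters. All 12 central genes were above it, against 3 of 5 anterior and 6 of 10 posterior genes. Among the central genes are Hoxa5 and Hoxc5, which in the mouse specify phrenic motor neurons, and Hoxc8, which there defines forelimb motor pools. By cluster, 6 of 7 Hoxa, 7 of 9 Hoxb, 5 of 5 Hoxc and 3 of 6 Hoxd genes passed.

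The genes that did not pass lay at both ends. Hoxb1 and Hoxd1, at the 3′ end of their clusters, averaged 4.59 ± 0.09 and 3.81 ± 0.09 in Control (SD, n = 4). Hoxa13, Hoxb13 and Hoxd13, the 5′ genes known from tail bud, limb and urogenital tract, averaged 4.48, 4.63 and 3.94. Paralog 12 was divided, since Hoxd12 lay under the floor at 3.90 ± 0.06 and Hoxc12 well above it at 8.16 ± 0.07. A floor of 4.5 also passed 21 genes, and a floor of 6 passed 19.

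**Figure D1:**
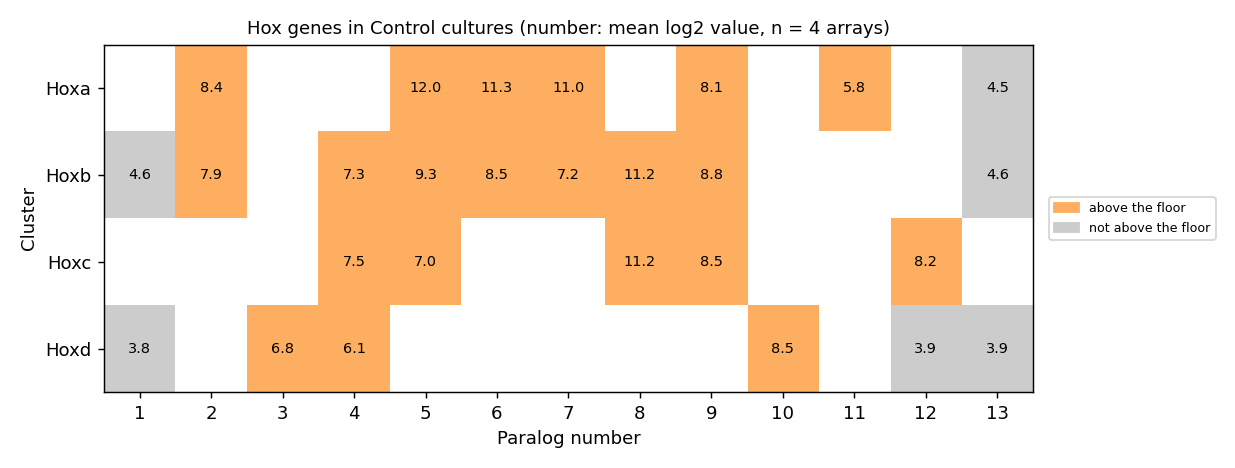
Hox genes in Control cultures by cluster (vertical) and paralog number (horizontal), with the mean log2 value of 4 arrays printed in each cell. Orange cells are genes with all 4 arrays at or above the floor of 5, grey cells the 6 that were not, and blank cells have no gene analysed here. The colour gives no ranking, since levels of different probe sets cannot be compared.

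After 24 h of any of the 3 ligands, most Hox genes lay below Control by small amounts, among them all central and most posterior ones. The fewest passed the test in F2V2 cultures. With F2V2, 1 of 27 Hox genes fell (3.70%), where 3.6% of all tested clusters were called lower, so this count stood at the background. With wtFGF2, 2 fell (7.41%, background 5.92%). With humanFGF2, 6 fell (22.2%, background 8.6%). No Hox gene was called higher in these comparisons, where 5.78%, 7.06% and 10.5% of all clusters were with F2V2, wtFGF2 and humanFGF2. Among clusters above the floor, as most Hox genes were, the share called lower with humanFGF2 was 12.7%, against 6 of the 21 Hox genes above it.

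Further Hox genes differed from Control by less than 1.4-fold. By adjusted p alone, 12 Hox genes were lower with F2V2 (44.4%, background 16.3%), 16 with wtFGF2 (59.3%, background 18.6%) and 13 with humanFGF2 (48.1%, background 21.3%). In the other direction, this count was 0 with F2V2, 0 with wtFGF2 and 1 with humanFGF2 (backgrounds 17.3%, 20.7% and 24.5%), the 1 being Hoxa2. The 16 lower with wtFGF2 include Hoxd1 (limma adjusted p = 0.0443), which lay under the floor. Leaving out 1 array gave 7 to 13 lower with F2V2, 12 to 16 with wtFGF2 and 11 to 14 with humanFGF2, and the F2V2 count moved most without Control replicate 1 (7). Subtraction of array medians gave 8, 12 and 11. Estimates below 0 were found for 23, 22 and 21 of the 27 genes with F2V2, wtFGF2 and humanFGF2, against 48.2%, 42.8% and 45.5% of all tested clusters. The median Hox difference was –0.20 with F2V2, –0.24 with wtFGF2 and –0.19 with humanFGF2, against 0.01, 0.03 and 0.02 over all clusters.

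The mean over the 27 Hox genes showed the same shift in each array. It was 7.40 to 7.48 in F2V2 arrays, 7.34 to 7.47 in wtFGF2 arrays and 7.33 to 7.49 in humanFGF2 arrays, against 7.57 to 7.68 in Control arrays. The ligand groups overlapped each other and none reached the Control range. Over the 12 central genes, the ranges were 8.86 to 8.93 with F2V2, 8.73 to 8.88 with wtFGF2 and 8.69 to 8.87 with humanFGF2, against 9.05 to 9.20 in Control.

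The estimates were also read by position along the clusters. All 12 central genes had estimates below 0 in each comparison, with medians of –0.25 (F2V2), –0.34 (wtFGF2) and –0.31 (humanFGF2), and 9, 10 and 8 of them passed by adjusted p alone. The 5 anterior genes had medians of –0.09, –0.18 and –0.14, and 3 of the 5 lay below 0 each time. The 10 posterior genes had medians of –0.16, –0.18 and –0.13, with 8, 7 and 6 below 0. By cluster, all 5 Hoxc genes lay below 0 in each comparison, with medians of –0.30, –0.36 and –0.33. The difference between these subsets was not tested, and the 6 genes under the floor, whose medians were –0.06, –0.05 and –0.01, are spread over the anterior and posterior subsets only. The lower anterior and posterior medians therefore do not show that the shift was uneven. Of the 6 posterior genes above the floor, Hoxa9, Hoxc9, Hoxc12 and Hoxd10 differed by –0.76 to –0.19 over the 3 comparisons. Hoxb9 differed by –0.27, –0.04 and 0.24, and Hoxa11 by 0.15, 0.02 and 0.19.

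**Figure D2:**
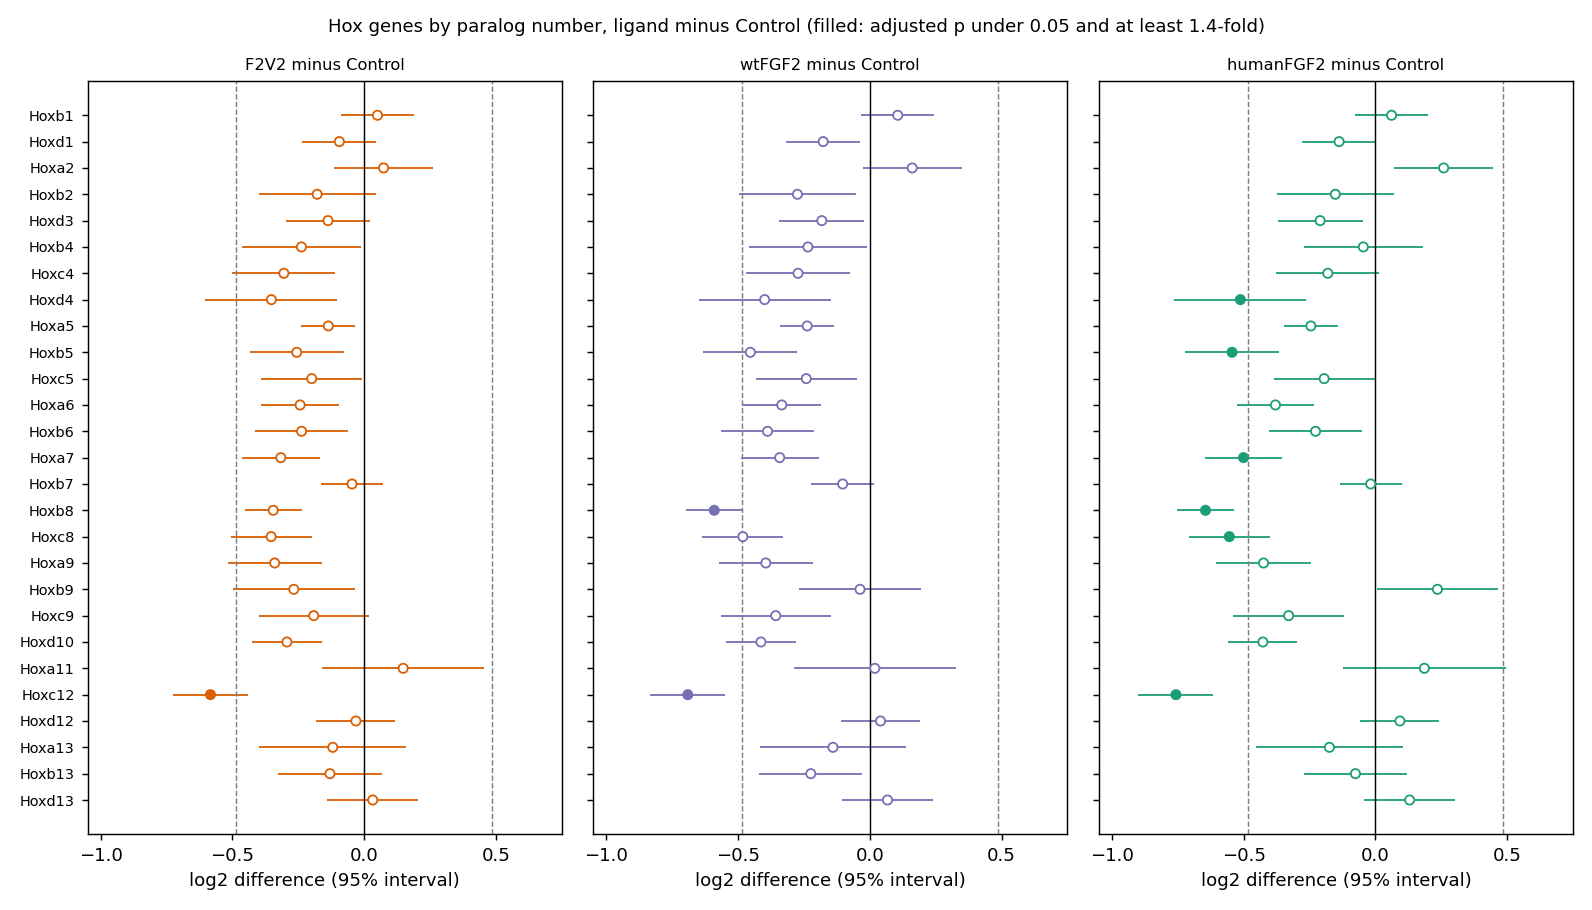
Log2 difference from Control (points) with its 95% interval (lines) for each of the 27 Hox genes, ordered by paralog number from the top, for F2V2, wtFGF2 and humanFGF2. Filled points are called (1, 2 and 6 genes), dashed lines mark 1.4-fold, and the points of paralogs 4 to 8 all lie left of 0.

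Hoxc12, near the 5′ end of the HoxC cluster (chr7:135952682-135954280), was the only Hox gene called with every ligand. It measured 7.66, 7.63, 7.44 and 7.58 in F2V2 arrays, 7.55, 7.39, 7.55 and 7.39 in wtFGF2 arrays and 7.47, 7.43, 7.24 and 7.48 in humanFGF2 arrays, against 8.23, 8.11, 8.20 and 8.10 in Control arrays. Every ligand array lay below every Control array, and the ligand groups overlapped. Hoxc12 was 1.5-fold lower with F2V2 (log2 difference –0.58, SE 0.07, limma adjusted p = 4.34e-06), 1.61-fold lower with wtFGF2 (–0.69, adjusted p = 4.25e-07) and 1.69-fold lower with humanFGF2 (–0.76, adjusted p = 7.47e-08). Its paralog Hoxd12, under the floor, differed from Control by –0.03, 0.04 and 0.09.

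Hoxb8 (chr10:81745430-81747181), needed in the mouse for dorsal horn sensory circuits and for normal grooming, had the lowest adjusted p of the Hox genes with wtFGF2 and humanFGF2. It measured 10.86, 10.93, 10.97 and 10.78 in F2V2 arrays, 10.64, 10.68, 10.68 and 10.56 in wtFGF2 arrays and 10.58, 10.58, 10.52 and 10.65 in humanFGF2 arrays, against 11.21, 11.24, 11.28 and 11.19 in Control arrays. Here F2V2 lay between, below all Control arrays and above all arrays of the other ligands. Hoxb8 was 1.51-fold lower with wtFGF2 (–0.59, SE 0.05, limma adjusted p = 1.1e-07) and 1.56-fold lower with humanFGF2 (–0.64, adjusted p = 1.93e-08). With F2V2 the difference was –0.35 (adjusted p = 5.81e-05), under the 1.4-fold threshold.

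Hoxc8 (chr7:136006407-136008973), the other paralog 8 gene measured, measured 10.87, 10.85, 10.77 and 10.85 in F2V2 arrays, 10.62, 10.75, 10.88 and 10.58 in wtFGF2 arrays and 10.70, 10.65, 10.47 and 10.72 in humanFGF2 arrays, against 11.33, 11.16, 11.17 and 11.10 in Control arrays. No ligand array reached the Control range, and F2V2 lay above all humanFGF2 arrays. Hoxc8 was 1.47-fold lower with humanFGF2 (–0.55, SE 0.07, limma adjusted p = 6.69e-06). With wtFGF2 the difference was –0.48 (adjusted p = 4.66e-05), just short of 1.4-fold, and it passed that threshold in 5 of the 16 fits that left out 1 array (without Control replicate 2, 3 or 4 or wtFGF2 replicate 2 or 3, at –0.49 to –0.54). With F2V2 it was –0.35 (adjusted p = 0.0011).

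Hoxb5 (chr10:81765911-81768119), which in the mouse acts in the vagal neural crest, measured 9.12, 9.07, 9.02 and 9.0 in F2V2 arrays, 8.70, 9.03, 9.05 and 8.64 in wtFGF2 arrays and 8.75, 8.84, 8.69 and 8.77 in humanFGF2 arrays, against 9.42, 9.30, 9.32 and 9.19 in Control arrays. The wtFGF2 arrays fell into a pair near F2V2 and a pair near or below humanFGF2, and all ligand arrays were under Control. Hoxb5 was 1.46-fold lower with humanFGF2 (–0.54, SE 0.08, limma adjusted p = 4e-05), with differences of –0.45 for wtFGF2 (adjusted p = 0.000345) and –0.26 for F2V2 (adjusted p = 0.0262).

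Hoxa7 (chr4:82646342-82652449), a gene of the brachial and thoracic cord, measured 10.67, 10.78, 10.65 and 10.72 in F2V2 arrays, 10.58, 10.71, 10.83 and 10.59 in wtFGF2 arrays and 10.68, 10.48, 10.39 and 10.54 in humanFGF2 arrays, against 11.06, 11.00, 11.11 and 10.93 in Control arrays. All ligand arrays lay below Control. Hoxa7 was 1.41-fold lower with humanFGF2 (–0.50, SE 0.07, limma adjusted p = 1.27e-05), and its differences were –0.34 with wtFGF2 (adjusted p = 0.000765) and –0.32 with F2V2 (adjusted p = 0.00188). The humanFGF2 call was at the edge of the fold threshold and was lost without Control replicate 3 (–0.47) or humanFGF2 replicate 3 (–0.46). Its paralog Hoxb7 differed from Control by only –0.05, –0.10 and –0.02 with F2V2, wtFGF2 and humanFGF2.

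Hoxd4 (chr3:80021886-80041462), which responds to retinoic acid in the mouse hindbrain, was the dimmest of the called genes relative to the floor. It measured 6.08, 5.74, 5.59 and 5.68 in F2V2 arrays, 5.69, 5.74, 5.59 and 5.90 in wtFGF2 arrays and 5.74, 5.74, 5.29 and 5.70 in humanFGF2 arrays, against 6.21, 6.08, 6.30 and 5.92 in Control arrays. F2V2 overlapped Control through replicate 1, and the other ligand groups did not. Hoxd4 was 1.43-fold lower with humanFGF2 (–0.51, SE 0.12, limma adjusted p = 0.00168), and the differences were –0.40 with wtFGF2 (adjusted p = 0.0125) and –0.35 with F2V2 (adjusted p = 0.0294). The call rested on the low humanFGF2 replicate 3, without which the difference was –0.40, and it was also lost without Control replicate 3 (–0.46).

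Hoxd10 (chr3:80001947-80005156), a determinant of lumbar motor neurons in the mouse, was not called but was among the 4 Hox genes of lowest adjusted p with F2V2 and with wtFGF2. It measured 8.23, 8.12, 8.16 and 8.18 in F2V2 arrays, 8.0, 8.01, 8.22 and 7.98 in wtFGF2 arrays and 8.12, 8.05, 7.99 and 8.0 in humanFGF2 arrays, against 8.57, 8.52, 8.37 and 8.41 in Control arrays. All ligand arrays were below Control. The differences were –0.29 with F2V2 (SE 0.06, limma adjusted p = 0.00138), –0.41 with wtFGF2 (adjusted p = 4.46e-05) and –0.43 with humanFGF2 (adjusted p = 2.03e-05), each under 1.4-fold.

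**Figure D3:**
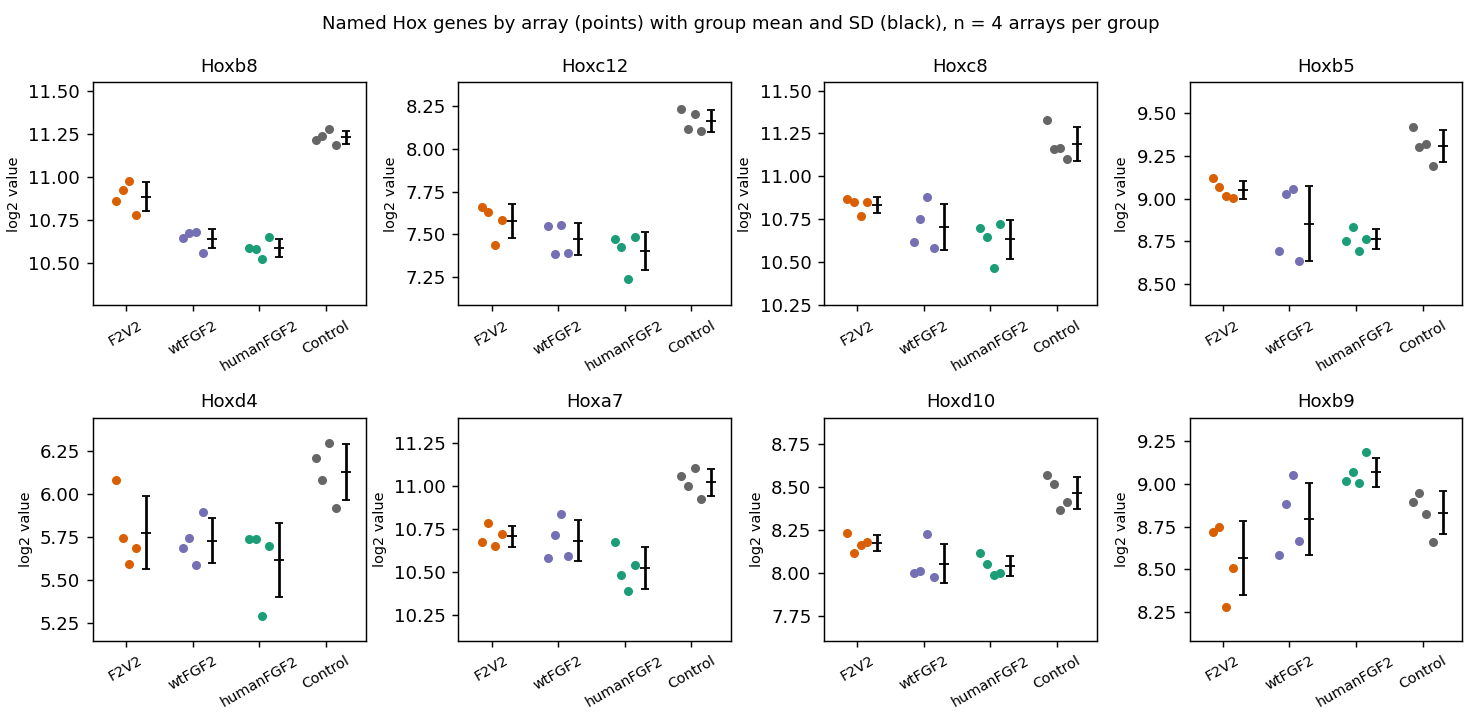
Log2 value of each array (points) for the 8 named Hox genes in F2V2, wtFGF2, humanFGF2 and Control cultures, with the group mean and SD (black) beside the points, n = 4 arrays per group. Every panel spans the same log2 range. The genes were chosen from these same arrays for a call or a low adjusted p, so separation from Control was largely set by that choice. Ligand arrays overlap Control arrays in Hoxd4 and Hoxb9.

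The other genes of the central block were not called with any ligand. Hoxa5 and Hoxa6 lay below every Control array with each ligand. For Hoxa6 the differences were –0.24, –0.33 and –0.38 with F2V2, wtFGF2 and humanFGF2 (limma adjusted p = 0.012, 0.000948 and 0.000222), and for Hoxa5 they were –0.14, –0.24 and –0.25 (adjusted p = 0.039, 0.000775 and 0.000437). Hoxb6 differed by –0.24, –0.39 and –0.23 (adjusted p = 0.0368, 0.00124 and 0.0345). Hoxc4, Hoxc5 and Hoxb4 ranged between –0.30 and –0.05 over the 3 comparisons.

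Among the posterior genes, Hoxa9 differed by –0.34, –0.39 and –0.42 with F2V2, wtFGF2 and humanFGF2 (limma adjusted p = 0.0047, 0.00117 and 0.000463), with no overlap with Control. Hoxc9, which in the mouse sets thoracic motor neuron identity, differed by –0.19, –0.36 and –0.33 (adjusted p = 0.158, 0.00802 and 0.0111), and its groups overlapped Control. Hoxa11 and the genes under the floor, Hoxd12, Hoxa13, Hoxb13 and Hoxd13, had adjusted p above 0.05 in all 3 comparisons. Among the anterior genes, Hoxb2 and Hoxd3 lay between –0.27 and –0.14, and Hoxb1 and Hoxd1 between –0.18 and 0.11. Hoxa2, a hindbrain gene, stood on the other side, with differences of 0.07, 0.16 and 0.26. The humanFGF2 value passed by adjusted p alone (0.0241), with 8.85, 8.64, 8.59 and 8.73 in humanFGF2 arrays, all above the Control arrays at 8.55, 8.43, 8.52 and 8.28.

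The ligands were then compared with each other. F2V2 and humanFGF2 were given at the same concentration according to the methods of the study, and the dose of wtFGF2 is not given, so the values that involve wtFGF2 are set side by side without a matched dose. The intervals below are 95% intervals. Between F2V2 and wtFGF2, 0 Hox genes were called, where 1.42% of all clusters were, and at an unadjusted p under 0.05 limma gave 2 higher and 0 lower. At that cut, 1238 of all 15653 clusters were higher and 1395 lower. Estimates lay above 0 with F2V2 against wtFGF2 for 20 of the 27 Hox genes and for 6739 of all 15653 clusters. For F2V2 against humanFGF2 they did for 14 Hox genes and 7127 clusters. For wtFGF2 against humanFGF2 they did for 13 and 7918. These directions were not tested. Between wtFGF2 and humanFGF2, 0 Hox genes were called, where 1.97% of all clusters were, and at an unadjusted p under 0.05 limma gave 1 higher and 1 lower. At that cut, 1457 of all 15653 clusters were higher and 1727 lower. Contrasts with unmoderated variances also called 0 Hox genes in both comparisons that involve wtFGF2. Between F2V2 and humanFGF2, 1 Hox gene was called, Hoxb9, where 2.9% of all clusters were called lower with F2V2 and 2.94% higher.

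Hoxb9 (chr10:81733857-81737363), a gene of the thoracic cord, was the only Hox gene called between ligands. It measured 8.72, 8.75, 8.28 and 8.51 in F2V2 arrays, 8.58, 8.88, 9.05 and 8.66 in wtFGF2 arrays and 9.01, 9.07, 9.0 and 9.19 in humanFGF2 arrays, against 8.90, 8.95, 8.82 and 8.66 in Control arrays. The humanFGF2 arrays were above all Control and all F2V2 arrays, and F2V2 overlapped Control. Hoxa2 likewise lay above all Control arrays with humanFGF2, but there F2V2 and humanFGF2 overlapped. Hoxb9 was 1.42-fold lower in F2V2 than in humanFGF2 cultures (–0.50, interval –0.73 to –0.27, limma adjusted p = 0.00288). Against Control, the differences were –0.27 with F2V2 (adjusted p = 0.0719), –0.04 with wtFGF2 (adjusted p = 0.821) and 0.24 with humanFGF2 (adjusted p = 0.0922), none of which passed. The call was lost without F2V2 replicate 3 (–0.41), F2V2 replicate 4 (–0.48) or humanFGF2 replicate 4 (–0.46).

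Of the genes that fell with humanFGF2, Hoxb8, Hoxb5 and Hoxc8 had higher values with F2V2 than with humanFGF2 on every array. For Hoxb8 and Hoxb5 the differences were 0.30 (interval 0.19 to 0.41, limma adjusted p = 0.000395) and 0.29 (interval 0.11 to 0.47, adjusted p = 0.0205), both short of 1.4-fold. For Hoxb8, F2V2 also lay above wtFGF2 by 0.25 (interval 0.14 to 0.35, adjusted p = 0.0108), the only Hox gene higher there by adjusted p alone (background 2.24%). By adjusted p alone Hoxb8 and Hoxb5 were the only Hox genes higher with F2V2 than with humanFGF2, where the background was 9.93%. For Hoxc8, Hoxa7, Hoxc12 and Hoxd4, F2V2 exceeded humanFGF2 by 0.20, 0.18, 0.17 and 0.16, with adjusted p of 0.0586, 0.071, 0.0782 and 0.389. The interval for Hoxd4 ran from –0.09 to 0.41, which holds both equal levels and a clear difference.

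**Figure D4:**
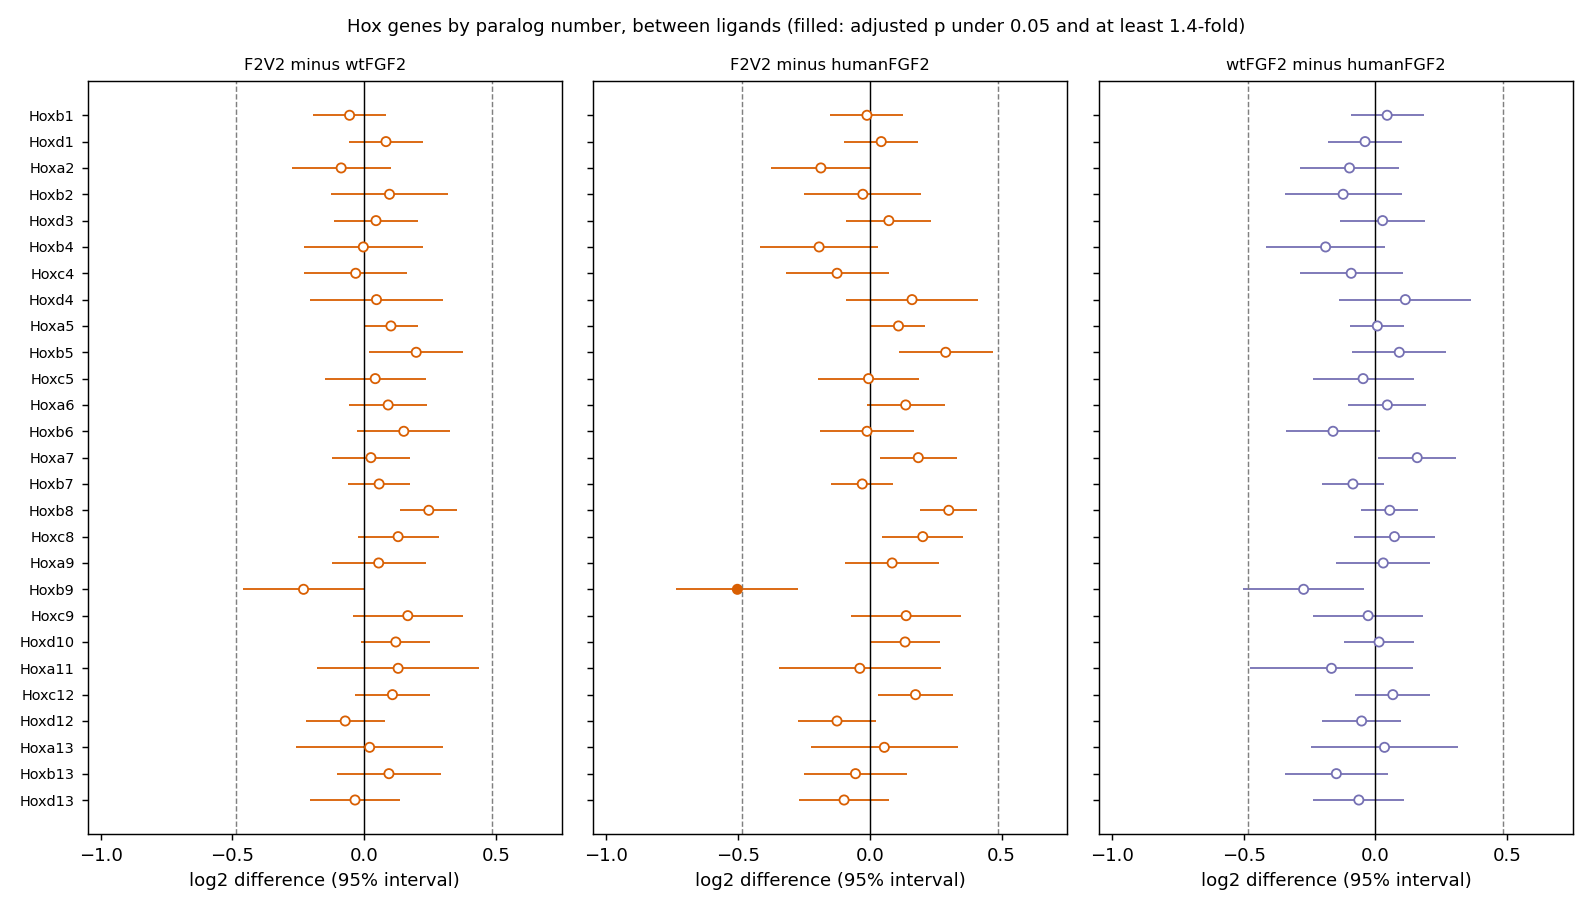
Log2 difference between ligands (points) with its 95% interval (lines) for each of the 27 Hox genes, ordered by paralog number from the top. Panels show F2V2 minus wtFGF2, F2V2 minus humanFGF2 and wtFGF2 minus humanFGF2, dashed lines mark 1.4-fold, and Hoxb9 in the middle panel is the only filled (called) point.

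Genes that act with or on Hox genes were read from the same fit. Of the TALE cofactors, 6 of 9 were measured and 0 were called with any ligand, with medians of –0.10, 0.01 and 0.02 for F2V2, wtFGF2 and humanFGF2. At an unadjusted p under 0.05, limma gave 2 lower and 1 higher with F2V2, 2 and 0 with wtFGF2 and 2 and 2 with humanFGF2. Among them, Pbx3 differed from Control by –0.23, –0.20 and –0.38 (limma adjusted p = 0.000576, 0.00153 and 1.95e-06). Of the caudal and axial regulators, 8 of 10 were measured, 0 were called, and Cdx1, Cdx2, Cdx4, Tbx6 and Evx1 averaged below the floor in every group. At an unadjusted p under 0.05, the limma counts for these 8 were 0, 1 and 3 with F2V2, wtFGF2 and humanFGF2, all lower. Of all 15653 clusters, 3176 were lower and 3313 higher at that cut with F2V2. The counts were 3330 lower and 3900 higher with wtFGF2, and 3663 lower and 4289 higher with humanFGF2. Of the Polycomb and trithorax genes, 14 of 23 were measured and Wdr5, a subunit of the MLL methyltransferase complexes, was the only one called. It was 0.64 higher with humanFGF2 (10.01, 10.05, 10.07 and 10.05, against 9.54, 9.42, 9.32 and 9.37 in Control arrays, limma adjusted p = 5.28e-07). Of all clusters, 10.5% were called higher with humanFGF2.

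The retinoid pathway, whose ligand switches on 3′ Hox genes in embryos, was measured for 12 of 17 genes. With F2V2, 3 fell (background 3.6%) and 0 rose (5.78%). With wtFGF2, 2 fell (5.92%) and 2 rose (7.06%). With humanFGF2, 3 fell (8.6%) and 1 rose (10.5%). Cyp26b1, which breaks down retinoic acid, averaged 6.03 ± 0.10 with F2V2, 5.93 ± 0.12 with wtFGF2 and 5.79 ± 0.17 with humanFGF2, against 6.57 ± 0.17 in Control (SD, n = 4), with differences of –0.54, –0.64 and –0.78 (limma adjusted p = 0.000277, 3.85e-05 and 2.94e-06). Aldh1a2, which makes retinoic acid, differed by –0.69, –0.66 and –0.92 (adjusted p = 0.0234, 0.0261 and 0.0023). Only the humanFGF2 call of Aldh1a2 held in each fit that left out 1 array. Aldh1a3, another such enzyme, averaged 5.26 ± 0.22 with F2V2, 5.33 ± 0.26 with wtFGF2 and 6.19 ± 0.24 with humanFGF2, against 4.82 ± 0.21 in Control, under the floor, so that its differences of 0.44, 0.51 and 1.37 (adjusted p = 0.0258, 0.00935 and 6.26e-07) are uncertain in size. The F2V2 difference was short of 1.4-fold. The carrier Crabp2 differed by –0.69, –0.13 and –0.09 with F2V2, wtFGF2 and humanFGF2 (adjusted p = 0.0326, 0.707 and 0.797), and only the F2V2 value was called. The retinol transporter Stra6 differed by 0.61, 0.74 and 0.61 (adjusted p = 0.0945, 0.0355 and 0.0735), and only the wtFGF2 value was called. Aldh1a1 differed by –0.39, –0.45 and –0.52 (adjusted p = 0.026, 0.00977 and 0.00286), and only the humanFGF2 value was called. The Crabp2 and Stra6 groups overlapped Control, and each of these 3 calls was lost in at least 1 fit that left out an array. Aldh1a1 lost it without Control replicate 3 (–0.43) and Cyp26b1 with F2V2 without Control replicate 1 (–0.48).

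Among other regulators of spinal cord neurons, 10 of 18 were measured, and 1 fell with F2V2 (background 3.6%), 3 with wtFGF2 (5.92%) and 3 with humanFGF2 (8.6%), with list medians of –0.21, –0.28 and –0.23. Lhx1, a factor of dorsal interneurons and lateral motor neurons, differed by –0.58, –0.85 and –0.69 (limma adjusted p = 0.000846, 1.66e-05 and 8.61e-05). Lbx1, of dorsal interneurons, was 0.77 lower with wtFGF2 and 0.71 lower with humanFGF2 (adjusted p = 8.03e-06 and 1.23e-05), and Pax2, of inhibitory interneurons, was 0.51 and 0.49 lower (adjusted p = 3.59e-06 and 3.28e-06). With F2V2, Lbx1 and Pax2 lay 0.47 and 0.35 below Control, short of 1.4-fold. The F2V2 call of Lhx1 was lost without Control replicate 1 (–0.45), and those of Pax2 without wtFGF2 replicate 1 (–0.48) and without Control replicate 1 or 3 or humanFGF2 replicate 3 (–0.47 to –0.48). Forebrain regulators, of which 11 of 16 were measured, had medians of –0.05, –0.04 and –0.07. The only call was Emx2, 0.50 and 0.49 higher with wtFGF2 and humanFGF2 (limma adjusted p = 9.98e-05 and 7.67e-05, backgrounds of 7.06% and 10.5% called higher), at the edge of the threshold. Its calls were lost without Control replicate 4 or wtFGF2 replicate 2 (0.46 to 0.47), and without Control replicate 1 or 4 or humanFGF2 replicate 2 or 4 (0.45 to 0.48).

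Markers of the cells in the culture also differed from Control, and their part in the Hox result was not tested. Of 12 neuronal markers, 8 were measured, with medians of –0.19, –0.20 and –0.19 for F2V2, wtFGF2 and humanFGF2, beside the Hox medians of –0.20, –0.24 and –0.19. The summed level of these markers (log2 of the sum of linear values) was 14.45 to 14.50 with F2V2, 14.42 to 14.59 with wtFGF2 and 14.47 to 14.54 with humanFGF2, against 14.64 to 14.67 in Control. No neuronal marker averaged below the floor, and the 21 Hox genes above it had medians of –0.243, –0.334 and –0.245. Of the 8 neuronal markers, limma called 0 with F2V2, 1 with wtFGF2 and 1 with humanFGF2. In both cases this was Gap43, called higher (backgrounds of 7.06% and 10.5%). By adjusted p alone, 6, 5 and 6 of the 8 were lower (75%, 62.5% and 75%). Of all 27 Hox genes, 44.4%, 59.3% and 48.1% were lower, with backgrounds of 16.3%, 18.6% and 21.3%. Of the 21 Hox genes above the floor, 57.1%, 71.4% and 61.9% were lower, with 23.5%, 27.0% and 30.1% of all clusters above it. Of 5 motor neuron markers, 3 were measured, with summed levels of 6.91 to 7.13, 6.93 to 7.03 and 6.88 to 7.08 in the ligand groups, in the same order, against 7.30 to 7.57 in Control, and Isl1 averaged below the floor throughout. Only Slc5a7, the choline transporter, was called, at 6.02, 5.97 and 5.96, against 6.76 in Control. Slc18a3, the vesicular acetylcholine transporter, averaged 5.6, 5.42 and 5.43, against 5.31 in Control, and the list medians were –0.09, 0.11 and 0.08.

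Markers of astrocytes and oligodendrocytes lay below Control with each ligand, while those of other glia were mixed. Of 11 astrocyte markers 6 were measured, and 1, 4 and 5 of these fell with F2V2, wtFGF2 and humanFGF2, with medians of –0.23, –0.67 and –1.07. Of 10 oligodendrocyte markers 7 were measured, and 1, 5 and 6 fell, with medians of –0.31, –0.57 and –0.89. Of all tested clusters, 3.6%, 5.92% and 8.6% were called lower with F2V2, wtFGF2 and humanFGF2, and 5.78%, 7.06% and 10.5% higher. Astrocyte markers summed to 14.18 to 14.27 with F2V2, 13.90 to 13.94 with wtFGF2 and 13.55 to 13.66 with humanFGF2, against 14.45 to 14.47 in Control. For oligodendrocytes the sums were 13.19 to 13.40, 13.06 to 13.10 and 12.72 to 12.93, against 13.44 to 13.67 in Control. All 9 microglia markers were measured, and 0, 0 and 2 fell and 2, 1 and 0 rose with F2V2, wtFGF2 and humanFGF2, with medians of 0.13, 0.05 and –0.09. All 7 markers of oligodendrocyte progenitors were measured, and 1, 1 and 3 fell and 2, 2 and 0 rose, with medians of –0.001, –0.18 and –0.42.

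**Figure D5:**
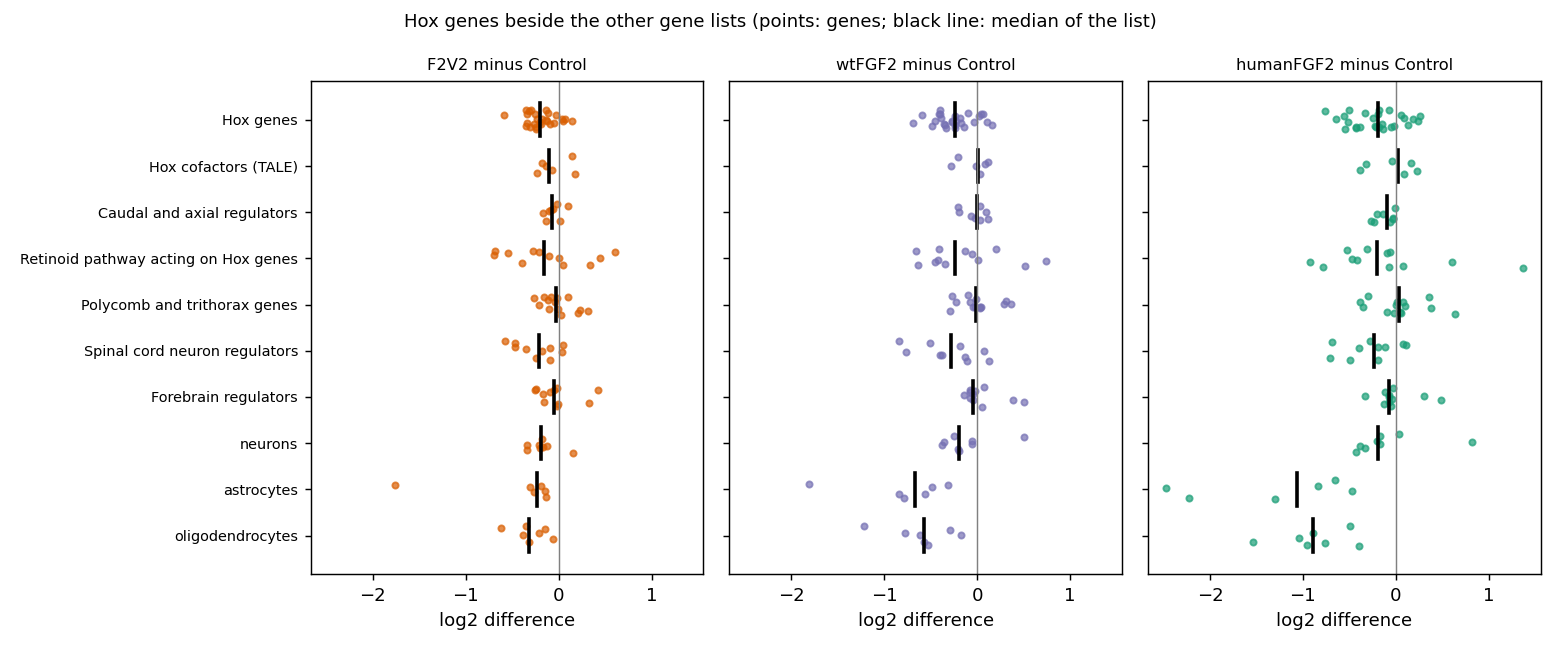
Log2 difference from Control of each gene (points) and the median (black line) for the 27 Hox genes, 6 lists of regulators and markers of neurons, astrocytes and oligodendrocytes, for F2V2, wtFGF2 and humanFGF2. The Hox medians were –0.20, –0.24 and –0.19, or –0.243, –0.334 and –0.245 for the 21 Hox genes above the floor. The neuronal medians were –0.19, –0.20 and –0.19, and the astrocyte medians run from –0.23 with F2V2 to –1.07 with humanFGF2.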

How the data were processed

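Biotin-labelled RNA of the cultures was measured on 16 Rat Gene 2.1 ST arrays (Affymetrix). The log2 values per transcript cluster (3.02 to 14.5) were made by the authors in Partek 6.6, with GCRMA as the normalization and Tukey's biweight as the summary of probe sets, per the methods and labels. Normalization between arrays can shrink differences, and the number of arrays limits the precision. Groups were taken from the labels, 4 arrays each, and none was left out. Of 36685 transcript clusters, 15653 had a gene symbol and were tested (14824 with 1 symbol, 829 with several, counted and not named), and 21032 had none.

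All 16 arrays were fitted as group means with lmFit and eBayes of limma 3.58.1 under R 4.3.3, and 6 contrasts were adjusted by Benjamini-Hochberg over all 15653 clusters. The threshold was an adjusted p under 0.05 and 1.4-fold, as in the study's methods, which used one-way ANOVA. The fit was tested on simulated data. Named genes are all Hox genes called in any contrast, the 4 of lowest adjusted p in each comparison with Control, and up to 4 called members of each other list. The members and lists were chosen with earlier results of these data known.

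Promoters and gene positions are RefSeq (GRCr8). Alternatives were adjusted p alone, a 2-fold threshold, quantile normalization, subtraction of array medians, a filter on dim clusters, all 36685 clusters, a robust prior with a trend, ANOVA contrasts with unmoderated variances, the replicate number as a block, averaging the clusters of a gene, a fit of 3 groups, other floors and each array left out.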

Additional observations from a re-analysis of the deposited data

Results flagged for a closer look

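In groups of 4 arrays, a single array was far from the other 3 in 9 of 108 gene and group pairs of the Hox genes (gap to the nearest array, as a share of the group's range, past Dixon's limit), and chance gives about 1 in 20 such groups. Those of a named gene were Hoxd4 in humanFGF2 replicate 3, at 5.29, and Hoxd10 in wtFGF2 replicate 3, at 8.22. That wtFGF2 array was also the highest of its group for Hoxa5, at 11.82, and Hoxc9, at 8.41. The others concerned genes under the floor. Hoxa13 was high in wtFGF2 replicate 2, at 4.58, and low in humanFGF2 replicate 4, at 4.05. Hoxd13 was high in wtFGF2 replicate 2, at 4.22, Hoxb1 was low in humanFGF2 replicate 3, at 4.55, and Hoxb13 was high in Control replicate 3, at 4.94.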

How the results depend on the processing

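The counts of called Hox genes (1, 2 and 6 for F2V2, wtFGF2 and humanFGF2 against Control, 1 for F2V2 against humanFGF2, 0 for the other pairs) moved mainly with the fold threshold. By adjusted p alone they were 12, 16 and 14, then 1 for F2V2 against wtFGF2 and 3 for F2V2 against humanFGF2. At 2-fold they were 0 in all 6 comparisons. Quantile normalization gave 1, 3 and 5 against Control and 0 for F2V2 against humanFGF2, and subtraction of array medians gave 1, 2 and 4. Leaving out each array gave 1 to 1, 2 to 4 and 4 to 6 against Control, 0 to 1 for F2V2 against humanFGF2 and 0 to 0 for the other pairs. The wtFGF2 count moved by over 1.5 times without Control replicate 4, wtFGF2 replicate 2 or wtFGF2 replicate 3.

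Hoxa7 and Hoxd4 with humanFGF2 lost their call under subtraction of array medians (log2 differences –0.44 and –0.46), and Hoxd4 also under quantile normalization (–0.45), where Hoxb9 between F2V2 and humanFGF2 was –0.48. Over the named genes, 386 alternative values kept direction and side of the threshold, 63 no longer passed, 7 newly passed and 0 changed sign.

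Replicate numbers did not pair the arrays. Of 24 same-number pairs, 3 had a correlation of deviations over 0.1 (median –0.026), and 3 of 16 arrays correlated best with their own number. With the replicate block, the counts were 1, 2 and 6, then 0, 1 and 0, as without it, and of the named genes only Stra6 with wtFGF2 lost its call (adjusted p = 0.0516). Outside the Hox genes, Aldh1a2 with F2V2 and wtFGF2, Crabp2 and Stra6 did not pass in contrasts with unmoderated variances (adjusted p = 0.0556, 0.0596, 0.0719 and 0.0762). Calls also turned on single arrays. The adjusted p of Aldh1a2 was 0.0501 to 0.0786 with F2V2 (without Control replicate 2 or 3 or F2V2 replicate 2 or 4) and 0.0523 to 0.0903 with wtFGF2 (without Control replicate 1, 2 or 3 or wtFGF2 replicate 2 or 3). That of Crabp2 with F2V2 was 0.057 to 0.106 (without Control replicate 2 or 3 or F2V2 replicate 1, 2 or 3) and that of Stra6 with wtFGF2 0.0529 to 0.122 (without Control replicate 1 or 4 or wtFGF2 replicate 1, 3 or 4). Aldh1a3 with wtFGF2 fell short of 1.4-fold, at 0.44 to 0.46, without Control replicate 1 or 4 or wtFGF2 replicate 3 or 4. With 4 arrays per group, differences under 1.4-fold passed the adjusted p for many Hox genes, while genes under the floor give no size of a difference.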
